A study of Mus musculus with 6 samples.

Results

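Glucose enters a muscle fibre through transporters of the GLUT family and is held there once a hexokinase has phosphorylated it. The 6 genes described here cover both steps: Slc2a1, Slc2a3 and Slc2a4 encode the transporters GLUT1, GLUT3 and GLUT4, Hk1 and Hk2 encode hexokinases 1 and 2, and Tbc1d1 encodes a Rab GTPase-activating protein that acts on GLUT4 vesicles. They were chosen, with earlier results of these data known, as genes of glucose entry that the array reads. Each of their probe sets was taken where the platform annotation names no other gene. This gave 15 of the 22626 probe sets tested and 6 of the 12393 genes they represent. In addition, 1 probe set that lists Hk1 together with other symbols was left out.

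The samples were skeletal muscle of 6 C57BL/6 mice, 1 array per mouse, all wild type and labelled as 1 month old (adult, in the study's own text, a difference left unsettled here). Adeno-associated virus (AAV) was injected into the muscle, in 3 mice with mouse Tfeb as its cargo (TFEB overexpression) and in 3 mice with green fluorescent protein (GFP control). The study's AAV vectors use the CMV promoter, which is not restricted to muscle fibres, and the labels do not name the muscle. The values are the authors' log2 expression values after robust multiarray averaging (RMA), so a difference of 1 is a doubling. The arrays compare like with like only probe set by probe set, because the brightness of a probe set also depends on its oligonucleotides. A gene was called higher or lower when its probe set of highest mean differed at least 1.5-fold (0.585 on the log2 scale) with an adjusted p below 0.05 in limma.

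GLUT4 is the main transporter of adult muscle and fat and moves to the cell surface after insulin or contraction, whereas GLUT1 stays largely at the surface, serves basal uptake and is more abundant in fetal than in adult muscle. GLUT3 is a high-affinity transporter known best from neurons. HK2 is the main hexokinase of muscle and responds to insulin, while HK1 is expressed in most tissues. TFEB is a basic helix-loop-helix factor known for lysosomal and autophagy genes, which carry CLEAR elements built around the E-box CACGTG. The comparison addresses which of these transcripts differed in muscle that received TFEB.

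Sequences that bear on TFEB and these genes are shown first. The study's supplement lists CLEAR sites of the Slc2a1 and Slc2a4 promoters that were used for chromatin immunoprecipitation. By that assay the study reports TFEB recruited to both promoters in muscle overexpressing TFEB. The sites are printed here 5′ to 3′ with the central E-box (CANNTG) in capitals.
Slc2a1 site P1: agagCAGGTGaggg
Slc2a1 site P2: ccttCAGGTGaacc
Slc2a4 site P1: ccacCACCTGactt
Each of the 3 sites has CAGGTG at its centre, written on the other strand as CACCTG in the Slc2a4 site, and 0 of the 3 hold the palindrome CACGTG.

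RefSeq promoter windows (mouse build GRCm38.p6, 250 bases before to 50 after an annotated start) were on hand for 4 of the 6 genes, with 1 window each for Slc2a1 and Hk2 and 2 each for Hk1 and Tbc1d1. Slc2a3 and Slc2a4 had no entry. The windows of the 3 genes whose transcripts were higher in TFEB overexpression are printed on the strand of the gene, with CANNTG and TATAAA, the letters of a TATA box, in capitals. Neither Slc2a1 site lies in the Slc2a1 window.
Slc2a1, chr4:119108495-119108794, plus strand: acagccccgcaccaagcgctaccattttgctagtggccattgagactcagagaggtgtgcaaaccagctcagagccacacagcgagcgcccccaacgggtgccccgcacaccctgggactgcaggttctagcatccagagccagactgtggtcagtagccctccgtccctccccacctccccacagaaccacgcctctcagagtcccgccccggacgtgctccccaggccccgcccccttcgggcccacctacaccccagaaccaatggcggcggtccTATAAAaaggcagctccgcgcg
Hk1, chr10:62340372-62340671, minus strand: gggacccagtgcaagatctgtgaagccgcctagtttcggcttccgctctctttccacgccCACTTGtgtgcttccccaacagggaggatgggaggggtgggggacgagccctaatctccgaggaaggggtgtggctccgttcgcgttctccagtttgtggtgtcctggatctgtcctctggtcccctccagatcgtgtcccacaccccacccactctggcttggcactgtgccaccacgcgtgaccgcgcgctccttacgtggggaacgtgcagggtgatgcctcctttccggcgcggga
Hk1, chr10:62379859-62380158, minus strand: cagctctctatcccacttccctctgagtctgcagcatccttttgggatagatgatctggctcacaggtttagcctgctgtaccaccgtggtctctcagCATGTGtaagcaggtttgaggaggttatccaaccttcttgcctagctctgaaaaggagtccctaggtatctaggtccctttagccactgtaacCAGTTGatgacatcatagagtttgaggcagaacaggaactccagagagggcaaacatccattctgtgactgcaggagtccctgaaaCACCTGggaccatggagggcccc
Hk2, chr6:82774405-82774704, minus strand: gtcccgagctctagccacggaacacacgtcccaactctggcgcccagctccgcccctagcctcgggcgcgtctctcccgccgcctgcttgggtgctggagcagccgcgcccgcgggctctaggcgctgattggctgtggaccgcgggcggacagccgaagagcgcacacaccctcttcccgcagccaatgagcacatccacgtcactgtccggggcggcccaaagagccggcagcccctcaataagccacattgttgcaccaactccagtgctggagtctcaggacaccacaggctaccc
Both strands were searched. Each of the other E-box motifs named here is or contains an instance of CANNTG, and TCACGTG contains the palindrome. CACGTG was in 0 of the 6 windows of these genes, against 7.15% of all 32851 windows, and TCACGTG is in 3.77% of all windows. CANNTG was in 3 of the 6 windows, both of Hk1 and 1 of Tbc1d1, against 72.3% of all. CAGGTG, the core of the listed Slc2a1 and Slc2a4 sites, was in 1 of the 6, an Hk1 window that holds it as CACCTG 28 bases after the start, against 20.2% of all. TATAAA was in 1 of the 6, the Slc2a1 window, where it begins 29 bases after the annotated start and not before it. It was in 13.6% of all windows. The letters describe the windows and say nothing of binding.

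All 6 genes passed the adjusted p, and they moved in both directions. Hk1, Slc2a1 and Hk2 were higher in TFEB overexpression, by 2.56-fold, 1.67-fold and 1.56-fold, and Slc2a3 was 4.52-fold lower. Slc2a4 was lower and Tbc1d1 higher by less than the fold limit on the probe sets that stand for them. At the full threshold 3 of 6 genes were thus higher and 1 lower, where 8.62% of all genes were higher and 4.9% lower, and the adjusted p alone was passed by 33.6% of all genes. Counted over probe sets, 5 of 15 were higher and 4 lower, against 7.51% and 6.11% of all probe sets. The groups did not overlap at 13 of the 15, which was also so for 49.9% of all probe sets. In whole muscle, fewer cells of a type and less RNA per cell cannot be told apart.

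**Figure D1:**
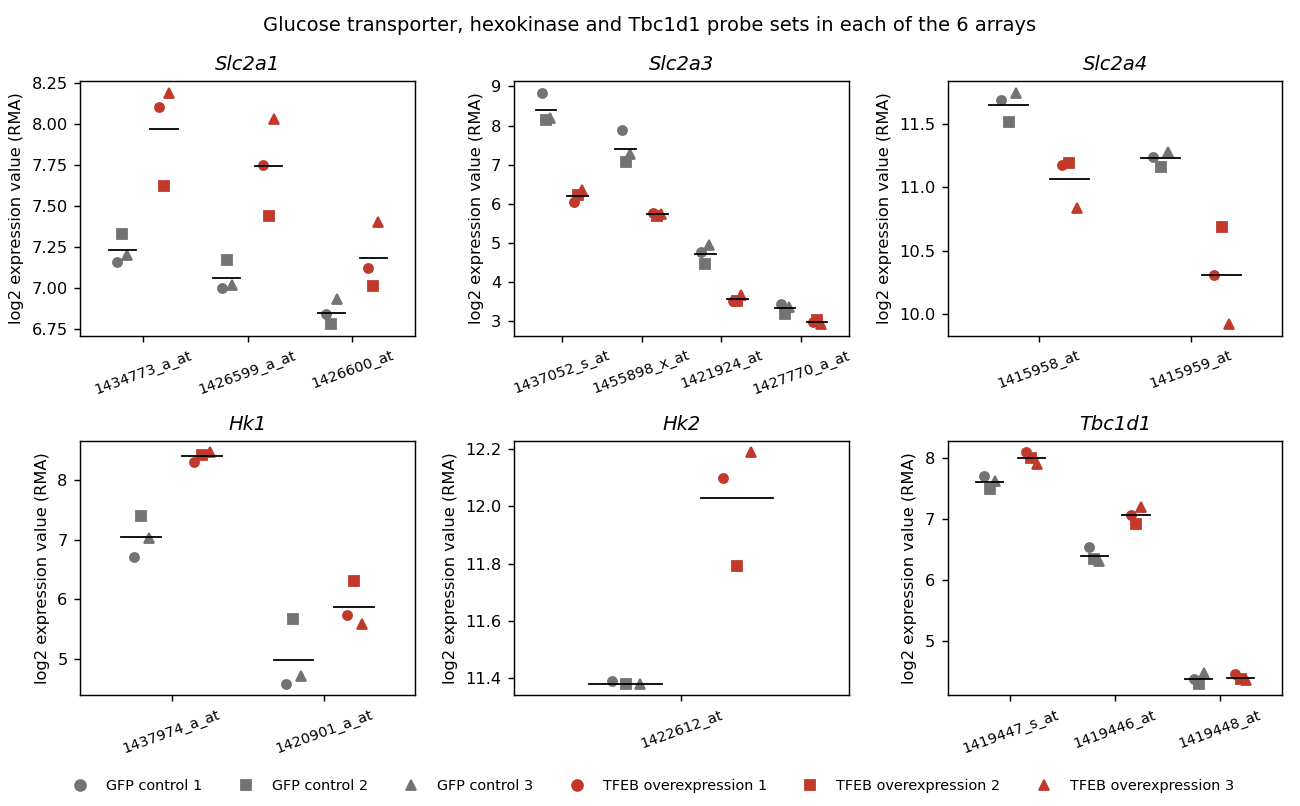
Log2 expression value (RMA) of each of the 15 probe sets in each of the 6 arrays, 1 panel per gene with its own y axis. Points are arrays, with the shape giving the replicate number and the colour the group (grey GFP control, red TFEB overexpression), and bars are group means (n = 3). The groups overlap only at Hk1 probe set 1420901_a_at and Tbc1d1 probe set 1419448_at.

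GFP control replicate 2 stood apart from the other controls. It differed over 2-fold from replicates 1 and 3 at 844 and 725 probe sets, while those differed from each other at 87 and the TFEB arrays differed at 45 to 101. It also held macrophage markers at the level of the TFEB arrays. Values without it are given where they bear on a call. The delivered gene was lower rather than higher on its only probe set (Tfeb 1422566_at, log2 fold change -0.77 ± 0.097, SE, n = 3 per group, adjusted p = 0.0024). Its place relative to the vector's cDNA is not stated, and it was not used as a check of the injection. Fast fibre genes, the defining transcripts of most limb muscle, were called at 0 of 13. Their mean log2 level was 14.0 in every control array and 13.93 to 13.96 in the TFEB arrays. The highest value of each array was 14.34 to 14.37. Most of these genes thus lay near the ceiling, where a change could hardly have shown. Myh1 and Myoz1, which lay lowest, changed by 0.45 and -0.42 on the log2 scale, under the fold limit (limma adjusted p = 0.011 and 0.0073). Genes listed for regenerating muscle, such as the embryonic myosin Myh3, were called higher at 6 of 6. Their mean log2 levels were 6.22 to 6.60 in the controls and 9.73 to 10.15 in the TFEB arrays. The 3′ minus 5′ log2 difference of the actin control probe sets, a sign of RNA quality, was 0.037 to 0.077 in the controls and 0.22 to 0.34 in TFEB overexpression, and its part in the results was not tested.

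Slc2a1 encodes GLUT1, the transporter of basal uptake. On probe set 1434773_a_at its log2 level was 7.16, 7.33 and 7.20 in GFP control replicates 1 to 3 and 8.10, 7.62 and 8.19 in TFEB overexpression. All 3 TFEB arrays lay above all controls, and TFEB replicate 2 lay closest to them. The log2 fold change was 0.74 ± 0.15 (SE, n = 3 per group, 95% interval 0.37 to 1.11), a 1.67-fold rise with an adjusted p of 0.013. A second probe set, 1426599_a_at, gave 7.00, 7.17 and 7.02 in the controls and 7.75, 7.44 and 8.03 in TFEB overexpression, a 1.60-fold rise (adjusted p = 0.016). These 2 probe sets put the 6 arrays in the same order, and the difference between their changes was 0.06 on the log2 scale (exact permutation test, two-sided, p = 0.7). The third, 1426600_at, did not pass, with 6.84, 6.78 and 6.93 in the controls, 7.12, 7.01 and 7.40 in TFEB overexpression and a log2 fold change of 0.33 ± 0.11 (adjusted p = 0.065). Averaged over its 3 probe sets, Slc2a1 changed by 0.58, which falls just short of the fold limit, and a test of 1434773_a_at without limma's variance sharing across probe sets gave an adjusted p of 0.063.

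Beside the rise of Slc2a1, markers of endothelium, a cell type that expresses GLUT1, were higher at 5 of 8 genes, among them Cdh5 and Tie1. Their mean log2 level was 7.13 to 7.41 in the controls and 8.11, 8.29 and 8.13 in TFEB replicates 1 to 3. The genes listed for regenerating muscle rose in the same arrays as given above, and whether fibres were regenerating was not measured. Fibroblast markers were higher at 3 of 6, all collagens (Col1a1 by 4.81-fold), with mean log2 levels of 10.25 to 10.50 in the controls and 11.20 to 11.49 in TFEB overexpression. Slow fibre genes were higher at 1 of 8, Tnni1, with a median log2 fold change of 0.58 and levels of 10.52 to 11.65 and 11.26 to 11.83. Red cell markers were lower at 1 of 5, Bpgm, at 5.82 to 5.95 and 5.52 to 5.72. Of the others, Hba-a1 and Epb42 were dim, with means above only 11.3% and 12.7% of all probe sets, and could hardly have shown a fall. The part of any of these groups of markers in the Slc2a1 values, or in those of the other genes, was not tested.

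Slc2a3 encodes GLUT3 and changed most among the 6 genes. Its probe set 1437052_s_at was at 8.84, 8.13 and 8.20 in GFP control and 6.05, 6.23 and 6.36 in TFEB overexpression on the log2 scale. No array came near the other group, and the gap between the lowest control and the highest TFEB array was larger than the range of either group. The log2 fold change was -2.18 ± 0.20 (SE, n = 3 per group, 95% interval -2.64 to -1.71), a 4.52-fold fall with an adjusted p of 0.001. Probe set 1455898_x_at fell 3.18-fold (adjusted p = 0.0021), from 7.89, 7.08 and 7.26 to 5.77, 5.69 and 5.75. The suffixes s and x mark probe sets whose oligonucleotides can also match other transcripts. Probe set 1421924_at carries no such mark, and it fell 2.23-fold (adjusted p = 0.0017), from 4.78, 4.46 and 4.94 in the controls to 3.53, 3.51 and 3.66. It is dim, with a mean above only 18.4% of all probe sets, so the size of its fall is uncertain.

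The last Slc2a3 probe set, 1427770_a_at, was at 3.43, 3.20 and 3.37 in the controls and 2.99, 3.03 and 2.93 in TFEB overexpression. These values are near those of the array's bacterial TrpnX controls (2.54 to 3.09), which were designed against a bacterial gene, and the log2 fold change of -0.35 ± 0.084 was under the fold limit (adjusted p = 0.021). Among cell types that carry GLUT3, platelet markers were called at 0 of 5, with mean log2 levels of 5.69 to 6.17 in the controls and 5.70 to 6.07 in TFEB overexpression. The platelet marker Ppbp was dim, with a mean above only 12.1% of all probe sets. Nerve and Schwann cell markers were called at 0 of 6, at 5.11 to 5.52 and 4.74 to 5.10, with a median log2 fold change of -0.17. All 6 had a lower mean in TFEB overexpression. Mbp changed by -1.0 (limma adjusted p = 0.1, groups overlapping) and S100b by -0.55 (adjusted p = 0.045), under the fold limit. The neurofilament genes Nefl (2.68 to 3.22 over the 6 arrays) and Nefm (2.82 to 3.16) lay at about the TrpnX level, so they could hardly have shown a fall. Adipocytes are not listed here for GLUT3, since GLUT4 was named above as the main transporter of fat. Adipocyte markers were called at 0 of 4 with a median log2 fold change of -0.53, at 7.57 to 8.42 and 7.27 to 7.67. Adipoq changed by -1.19, Retn by -0.74 and Lep by -0.32 (limma adjusted p = 0.084, 0.066 and 0.088). Fabp4 went the other way, by 0.38 (limma adjusted p = 0.045), under the fold limit. The part of any of these cell types in the Slc2a3 values was not tested.

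Slc2a4 encodes GLUT4, the insulin-responsive transporter. Its probe set 1415958_at was at 11.69, 11.52 and 11.75 on the log2 scale in GFP control and 11.18, 11.19 and 10.84 in TFEB overexpression. Every TFEB array lay below every control, with replicate 3 lowest. The log2 fold change was -0.58 ± 0.12 (SE, n = 3 per group, 95% interval -0.87 to -0.29), which passed the adjusted p (0.013) and missed the fold limit of 0.585. Without GFP control replicate 2 it was -0.65 and was called lower (adjusted p = 0.0067). The second probe set, 1415959_at, read 11.24, 11.16 and 11.28 in the controls and 10.31, 10.69 and 9.92 in TFEB overexpression. On it Slc2a4 fell 1.89-fold (log2 fold change -0.92 ± 0.18, adjusted p = 0.011), with replicate 3 again the lowest TFEB array. By quantitative PCR of gastrocnemius muscle given AAV-TFEB, set against wild-type muscle, the study reports the opposite direction for the GLUT4 transcript, an increase. It reports increases of GLUT1, TBC1D1, HK1 and HK2 by the same assay, and the same increases in TFEB transgenic mice. GLUT1 protein was also reported higher with TFEB overexpression. The reason for the difference in direction was not tested. Nor was the part in the Slc2a4 values of adipocytes, whose markers are given above.

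Hk1, the hexokinase of most tissues, had the largest rise of the 6 genes. On probe set 1437974_a_at its log2 level was 6.70, 7.39 and 7.03 in GFP control and 8.30, 8.42 and 8.46 in TFEB overexpression. The TFEB arrays lay close together and above all controls, and the controls spread more, with replicate 2 highest. The log2 fold change was 1.35 ± 0.17 (SE, n = 3 per group, 95% interval 0.95 to 1.76), a 2.56-fold rise with an adjusted p of 0.0025. Probe set 1420901_a_at gave 4.59, 5.67 and 4.71 in the controls and 5.74, 6.30 and 5.58 in TFEB overexpression. Here the groups overlapped, because GFP control replicate 2 lay above TFEB replicate 3, and the log2 fold change of 0.88 ± 0.32 did not pass (adjusted p = 0.074). Without GFP control replicate 2 it was 1.22 and passed (adjusted p = 0.0035), and that of 1437974_a_at was 1.53 (adjusted p = 0.00027).

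The array that set the upper end of Hk1 in the controls was also the one rich in macrophage transcripts. The mean log2 level of 9 macrophage markers was 7.12, 9.15 and 7.06 in GFP control replicates 1 to 3 and 8.58, 9.42 and 9.39 in TFEB overexpression, with a median log2 fold change of 1.29 and 1 of 9, Cd68, called higher. The part of macrophages in the Hk1 values was not tested.

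**Figure D2:**
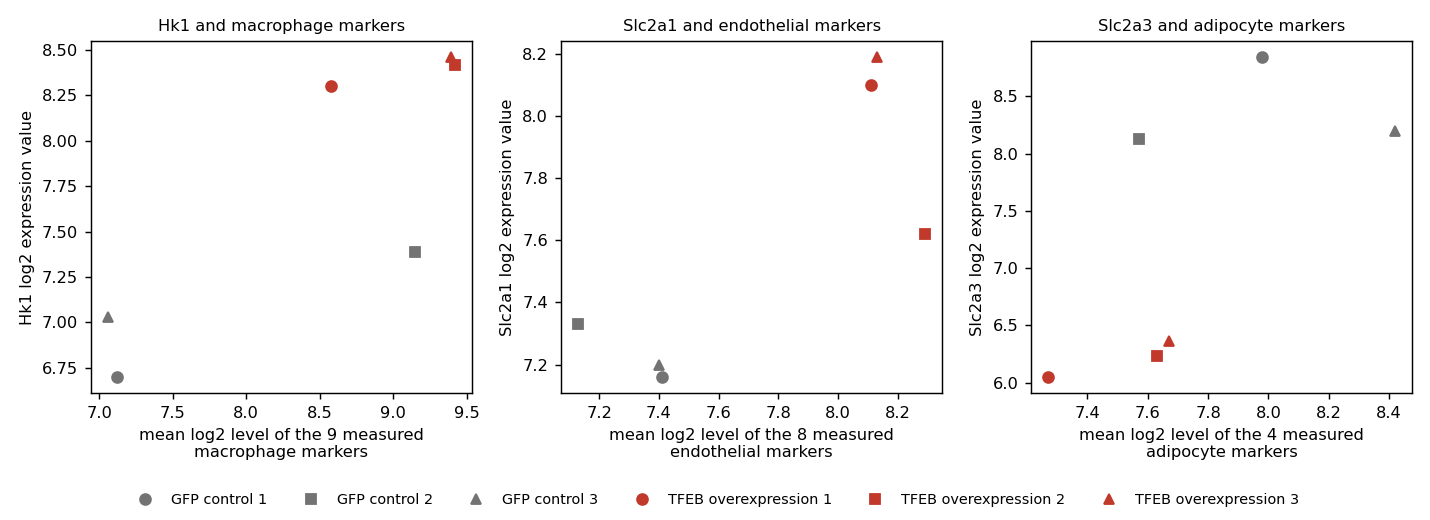
Log2 expression value of Hk1, Slc2a1 and Slc2a3 (y axes, probe set of highest mean) against the mean log2 level of 9 macrophage, 8 endothelial and 4 adipocyte markers (x axes) in the 6 arrays. Grey points are GFP control and red points TFEB overexpression, with shapes for replicate numbers. GFP control replicate 2 has 9.15 for macrophage markers and 7.39 for Hk1, and TFEB replicate 1 has 8.58 and 8.30.

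Hk2, the main hexokinase of adult muscle, was read by 1 probe set, 1422612_at. Its log2 level was 11.39, 11.38 and 11.38 in the controls and 12.10, 11.79 and 12.19 in TFEB overexpression. The controls were nearly identical, and TFEB replicate 2 was the lowest of the TFEB arrays, as it was on all 3 Slc2a1 probe sets. The log2 fold change was 0.64 ± 0.11 (SE, n = 3 per group, 95% interval 0.38 to 0.91), a 1.56-fold rise with an adjusted p of 0.0067. Without TFEB replicate 3 it was 0.56, and with arrays at equal medians 0.58, both under the fold limit (adjusted p = 0.025 and 0.01).

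TBC1D1 keeps GLUT4 vesicles inside the fibre until it is phosphorylated. Its probe set of highest mean, 1419447_s_at, was at 7.71, 7.50 and 7.62 in GFP control and 8.10, 8.01 and 7.90 in TFEB overexpression. The groups stood apart, and the log2 fold change of 0.39 ± 0.088 passed the adjusted p (0.017) and not the fold limit. Probe set 1419446_at was at 6.54, 6.34 and 6.31 in the controls and 7.06, 6.92 and 7.19 in TFEB overexpression, a 1.58-fold rise (adjusted p = 0.0048). The third, 1419448_at, was at 4.37, 4.29 and 4.46 and at 4.45, 4.37 and 4.35. On it the groups overlapped, and the log2 fold change was 0.02 with a 95% interval of -0.16 to 0.20. A rise as large as on 1419446_at lies outside this interval. The probe set is dim, with a mean above only 21.3% of all probe sets, so its interval does not speak for the transcript. Setting the arrays to equal medians, which shifts all probe sets of an array alike, turned the sign of its log2 fold change (-0.05).

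**Figure D3:**
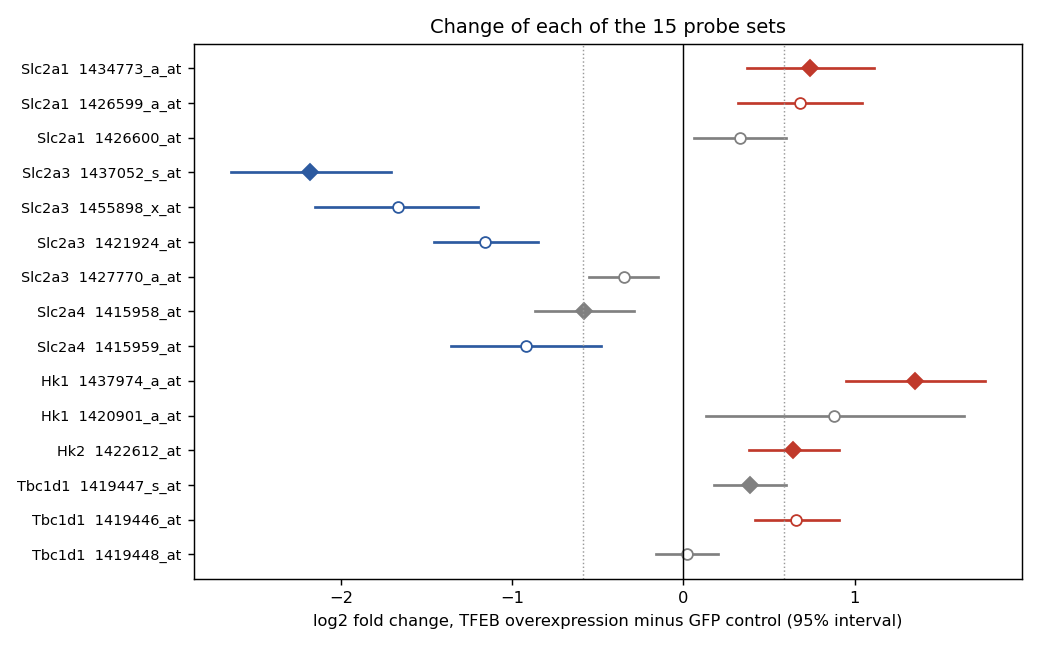
Log2 fold change (x axis, TFEB overexpression minus GFP control) of each of the 15 probe sets (y axis) with its 95% interval from limma, n = 3 arrays per group. Filled diamonds mark the probe set of highest mean of each gene, red and blue mark probe sets called higher and lower, grey those not called, and dotted lines the fold limit of 1.5. All 4 Slc2a3 and both Slc2a4 changes lie below 0, and all Slc2a1, Hk1 and Hk2 changes lie above 0.

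The balance between related genes was compared within each array, as the difference of the log2 values of a pair. It does not change when all values of an array are shifted alike, but it can change with the normalization. Repeated quantile normalization gave log2 fold changes of 0.69 for Slc2a1 and -0.55 for Slc2a4, in place of 0.74 and -0.58. In 4 pairs compared, all TFEB arrays lay outside the range of the controls. The exact permutation test (two-sided) gave p = 0.1 for each, the smallest that 3 arrays against 3 allow, and 0.1 after adjustment over the 4 pairs, so the threshold could not be reached. The mean of Slc2a1 minus Slc2a4 was 1.32 higher in TFEB overexpression on the log2 scale, a factor of 2.5 in the ratio of the GLUT1 to the GLUT4 transcript. Of the TFEB arrays, replicate 2 was nearest to the controls in this ratio and replicate 3 farthest. The mean of Slc2a1 minus Slc2a3 was 2.91 higher (a factor of 7.54) and that of Slc2a4 minus Slc2a3 was 1.60 higher (3.02), and averaged over all probe sets of each gene these were 1.92 and 0.59. Hk1 minus Hk2 was 0.71 higher (1.63).

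**Figure D4:**
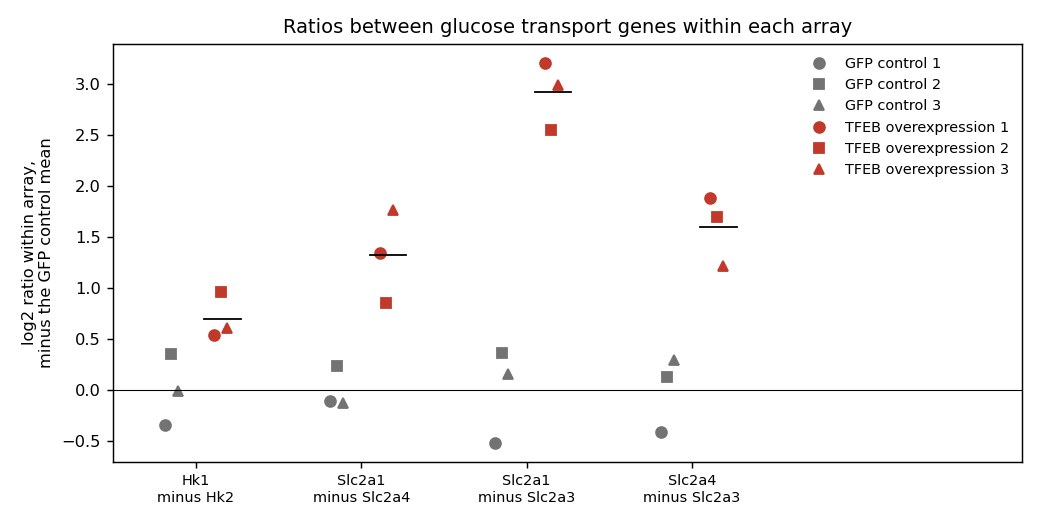
Log2 ratio of 2 genes within each array (y axis), minus the mean of the 3 GFP control arrays, for 4 pairs of genes (x axis). Points are arrays with shapes for replicate numbers, grey for GFP control and red for TFEB overexpression, and bars are the means of TFEB overexpression. The TFEB means are 0.71, 1.32, 2.91 and 1.60, and the groups do not overlap in any of the 4 pairs.

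The same test compared probe sets of 1 gene, in 9 pairs. The groups did not overlap in 7 pairs (exact permutation p = 0.1 each, 0.1286 after adjustment over the 9), again the smallest p possible. One of the 7 sets Slc2a3 1437052_s_at against 1427770_a_at, which lay within the TrpnX range in TFEB overexpression, and its size is not read. In Slc2a3 the change on 1437052_s_at minus that on 1455898_x_at was -0.51 on the log2 scale. In Slc2a4 the change on 1415958_at minus that on 1415959_at was 0.34, and in Tbc1d1 the change on 1419447_s_at minus that on 1419446_at was -0.27.

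Around the 6 genes, 61 others of glucose entry were listed in 5 groups, of which 48 were measured. Of these 3 were called higher, 3 lower and 42 neither, with a median log2 fold change of -0.06 beside -0.046 over all genes. Over all genes 8.62% were higher and 4.9% lower. At the adjusted p alone 26 of 48 passed, where 33.6% of all genes did, 8 with a higher and 18 with a lower mean in TFEB overexpression. The split by direction over all genes at the adjusted p alone was not taken, so the 8 and 18 are not read as a lean.

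Of the other sugar transporters, 5 of 9 were measured and 0 called. The smallest p was that of Slc2a9, which encodes a urate transporter of the GLUT family (log2 fold change -0.22 ± 0.096, adjusted p = 0.12). Of the enzymes that make or use glucose 6-phosphate, 9 of 13 were measured and 1 was called, with a median log2 fold change of -0.3. It was Slc37a4, the carrier that brings glucose 6-phosphate into the endoplasmic reticulum, which fell 1.53-fold (log2 fold change -0.62 ± 0.13, adjusted p = 0.012). Its call was lost at equal fast fibre medians (-0.57), without variance sharing across probe sets (adjusted p = 0.055) and without GFP control replicate 1 (-0.53) or 3 (-0.57). The mitochondrial channels on which hexokinases dock, Vdac1, Vdac2 and Vdac3, were called at 0 of 3, and the smallest p was that of Vdac3 (log2 fold change -0.29 ± 0.074, adjusted p = 0.026). Neither direction was thus called in the docking channels.

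In GLUT4 vesicle traffic, 18 of 23 genes were measured, 1 higher and 1 lower, with a median log2 fold change of -0.01. Myo1c, a myosin that helps bring GLUT4 vesicles to the membrane, was higher on its probe set of highest mean, at 8.77, 8.89 and 8.87 in the controls and 9.57, 9.59 and 9.70 in TFEB overexpression (1.71-fold, adjusted p = 0.0011). Of its 3 further probe sets 1 was also called higher. Exoc7, a subunit of the exocyst that tethers them, fell 2.17-fold (adjusted p = 0.001), from 9.56, 9.25 and 9.37 to 8.38, 8.25 and 8.20. The groups of both genes stood well apart.

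Regulators of the transporter genes and proteins were all measured, with 2 of 13 higher, 1 lower and a median log2 fold change of -0.07. Hif1a, the hypoxia-inducible factor known to drive Slc2a1 and the hexokinase genes, was higher on probe set 1427418_a_at, at 8.68, 9.01 and 8.54 in the controls and 9.78, 9.49 and 9.90 in TFEB overexpression (1.98-fold, adjusted p = 0.0049). On its other 3 probe sets it was not called, with log2 fold changes of 0.51, -0.13 and -0.05. Arrdc4, an arrestin related to Txnip that lowers glucose uptake, was higher on 1 of 2 probe sets (1.60-fold, adjusted p = 0.0083). Averaged over all probe sets of a gene, Hif1a (0.33), Arrdc4 (0.42) and Myo1c (0.51) were under the fold limit on the log2 scale. Klf15, known as an activator of Slc2a4, fell 1.91-fold (adjusted p = 0.0029), from 8.57, 8.50 and 8.44 to 7.57, 7.80 and 7.34.

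**Figure D5:**
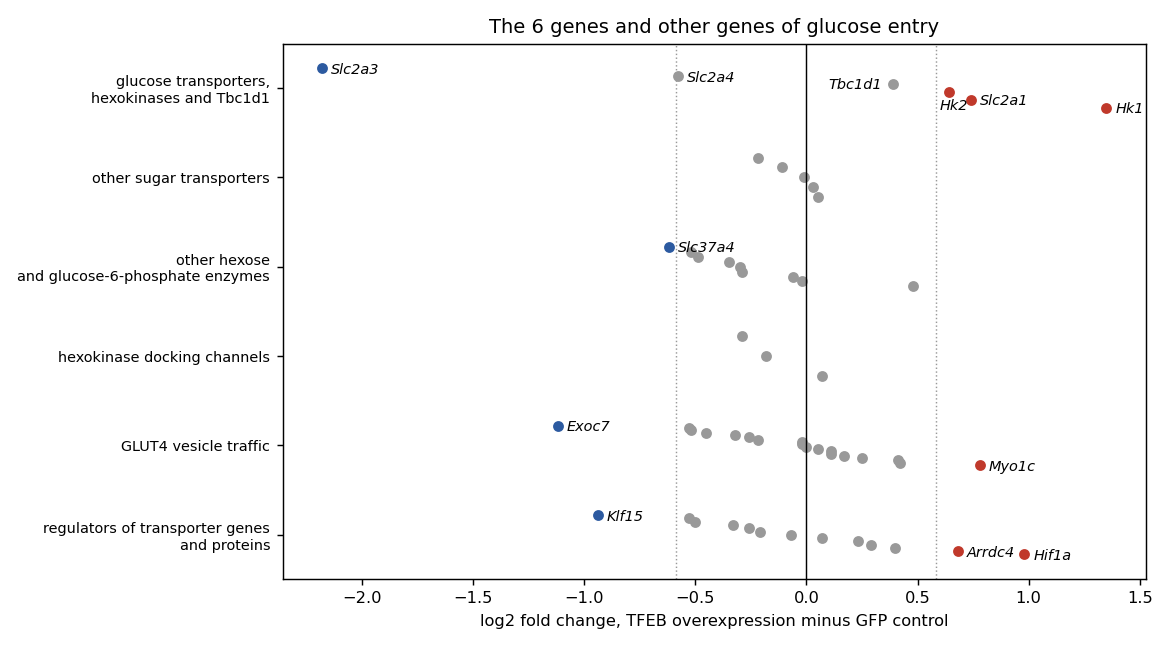
Log2 fold change (x axis, TFEB overexpression minus GFP control, n = 3 arrays per group) of the 6 genes and of 48 measured genes of glucose entry in 5 lists (rows), each gene by its probe set of highest mean. Red and blue points passed the threshold as higher and lower, grey points did not, and dotted lines mark the fold limit of 1.5. The 3 higher and 3 lower list genes are named, and 42 list genes are grey.

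For each of the 6 genes, the 2 other genes whose 6 values ran most like its own, after subtraction of the control mean, were found as a description. The measure is the root mean square difference in log2 units over 6 arrays, and it favours genes of similar change. Slc2a1 was closest to Pygo2 (0.046) and Ror2 (0.057), which share its dip in TFEB replicate 2. Hk2 was closest to Tnip1 (0.045) and Inpp4a (0.059), with flat controls in both. Hk1 was closest to Lxn (0.093) and Ehd4 (0.113), which were likewise highest among controls in GFP control replicate 2. Slc2a4 was closest to Zfand3 (0.044) and Cops4 (0.047), and Tbc1d1 to Clasp1 (0.032) and Nme1 (0.038). Slc2a3 had no near match, its closest being Tmem100 (0.13) and Col9a1 (0.217), with log2 fold changes of -2.09 and -2.33.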

How the data were processed

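Total RNA of muscle from 6 mice was hybridised to Affymetrix mouse expression arrays. The authors deposited 1 log2 value per probe set and array, and the submitters' processing notes name affy and RMA (background correction, quantile normalization and probe summary), with versions not given in the sources used here. Quantile normalization can remove part of a change shared by most transcripts. Arrays carry no read depth, and their number limits the precision. Groups came from the sample labels.

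A model of 2 groups was fitted with lmFit and eBayes of limma 3.58.1 (R 4.3.3) to the 22626 probe sets other than Affymetrix controls, and two-sided p-values were adjusted over all of them by Benjamini and Hochberg. The limits (1.5-fold, adjusted p below 0.05) are those of the study's gene list. The study's array methods were not among the sources. Of the probe sets 20380 had 1 symbol in the platform annotation, and the one of highest mean stood for a gene. Differences within arrays were tested by exact permutation. The fit was tested on simulated data. RefSeq promoter windows were matched by symbol.

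The genes, lists and tests were chosen with earlier results of these data known. Named are the 6 genes with all probe sets, list genes past the limits, the gene of smallest p in a list with none, and the 2 closest patterns per gene. Genes given with cell type or state markers are further examples. Alternatives were other scalings, normalization, weights, filters, variance models, a Student test, averaged probe sets, a replicate block and leaving out each array.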

Additional observations from a re-analysis of the deposited data

How the results depend on the processing

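Of 473 alternative values, 431 counted as unchanged: a tested change kept its direction and its side of the threshold, a count was within 1.5 times its value, or an untested difference moved by less than the spread between arrays. Another 16 lost the call, 9 gained it, 13 counts or differences moved further and 4 turned in sign. Among the counts taken as unchanged, the genes higher fell from 3 to 2 with the Student test, averaged probe sets and equal medians, and probe sets higher went from 5 to 4 at equal medians and to 6 with array weights or the block. Slc2a3 and Hk1 were called, and Tbc1d1 remained under the fold limit, in every alternative run. A two-tailed Student test ended the call of Slc2a1 (0.74, adjusted p = 0.063) and left 3 probe sets of the 6 genes higher. Averaging the probe sets of each gene put Slc2a1 at 0.58, under the fold limit, called Slc2a4 lower at -0.75, gave 1.92 for Slc2a1 against Slc2a3 and 0.59 for Slc2a4 against Slc2a3, and left 0 list genes higher. Setting the arrays to equal medians moved the median of all probe sets from -0.064 to -0.133, called Slc2a4 lower at -0.65, put Hk2 at 0.58, under the limit, and raised the list genes called lower from 3 to 7. It gave 1475 probe sets higher and 1789 lower in place of 1700 and 1382, while equal fast fibre medians gave 1926 and 1158, so the share of higher calls ran from 45.2% to 62.5% around 55.2%. Array weights gave 2144 and 1625 and called Slc2a4 lower at -0.62. In these 3 settings, averaging, equal medians and weights, 2 of the 6 genes were lower rather than 1. Tbc1d1 probe set 1419448_at turned to -0.05 at equal medians and -0.02 with array weights. The causes were not tested. Adjusted p ranged over the alternatives from 0.0046 to 0.063 for Slc2a1, 0.00032 to 0.019 for Slc2a3, 0.005 to 0.055 for Slc2a4, 0.00027 to 0.027 for Hk1, 0.004 to 0.037 for Hk2 and 0.0096 to 0.054 for Tbc1d1.

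Leaving out each array in turn gave log2 fold changes of 0.63 to 0.91 for Slc2a1, -2.30 to -1.95 for Slc2a3, -0.65 to -0.47 for Slc2a4, 1.18 to 1.53 for Hk1, 0.56 to 0.76 for Hk2 and 0.34 to 0.44 for Tbc1d1. Slc2a4 was called lower without GFP control replicate 2 (-0.65), TFEB replicate 1 (-0.64) or TFEB replicate 2 (-0.64), which makes 2 genes lower rather than 1, and Hk2 lost its call without TFEB replicate 3 (0.56), which leaves 2 of the 6 genes higher. Genes higher ranged from 2 to 3 and lower from 1 to 2, probe sets higher from 3 (without TFEB replicate 3) to 6 and lower from 4 to 5, and list genes lower from 2 to 5 (5 without TFEB replicate 2), with 3 higher each time. Tbc1d1 probe set 1419448_at ran from -0.03 (without GFP control replicate 2) to 0.06 and was -0.01 without TFEB replicate 1. The labels number replicates 1 to 3 in both groups. The deviations of same-numbered arrays correlated at 0.4218, 0.1663 and -0.233, and those of arrays with different numbers at -0.4357 to 0.3271. With 3 arrays per group these values cannot settle whether the numbers mark a pairing. With the number as a replicate block 1686 probe sets were higher and 1366 lower, the log2 fold changes of the 6 genes kept their calls with adjusted p of 0.035 (Slc2a1), 0.0075 (Slc2a3), 0.037 (Slc2a4), 0.0075 (Hk1), 0.018 (Hk2) and 0.032 (Tbc1d1), and Hk1 probe set 1420901_a_at passed (0.88, adjusted p = 0.013).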
